A study of Rattus norvegicus with 12 samples.

Results

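The nuclear-encoded subunits of the oxidative phosphorylation machinery (OXPHOS) were followed across cardiomyocytes that carried different forms of KAT6A. Members were table rows with the gene symbols used for subunits of complexes I to V and that held 10 or more counts in 3 or more libraries. The symbols were Nduf with a, b, c, s or v and a digit, Sdha to Sdhd, those that begin with Uqcr, Cyc1, Cox4 to Cox8 with a letter, and those that begin with Atp5. Assembly factors such as the Ndufaf genes did not match. Of 90 rows that matched by symbol, 85 passed, out of 14063 genes tested and 32883 genes in the table. The 85 carry 81 different symbols, because Ndufv3, Uqcrb, Cox6b1 and Ndufa10l1 each have a second row. Complex I had 38 members, complex II 4, complex III 10, complex IV 16 and complex V 17, and all 85 were tested. The 5 rows that did not pass were Ndufa1, Cox7a1, Cox7b2, Cox8c and Cox6c-ps1.

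Complexes I to IV of the inner mitochondrial membrane pass electrons from NADH and succinate to oxygen and, except for complex II, pump protons, and complex V (ATP synthase) uses the proton gradient to make ATP. Most subunits are encoded in the nucleus, while a small core is encoded by mitochondrial DNA, so the complexes are built from transcripts of both genomes. In the heart, which depends on oxidative metabolism for contraction, several complex IV subunits exist as a widespread form and as a heart and muscle form that takes over as the heart matures.

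RNA came from primary ventricular cardiomyocytes of newborn rats, infected for 2 days with an adenovirus and then lysed for poly(A) RNA sequencing. The 4 groups of 3 libraries carried LacZ (a bacterial enzyme, the control), wild-type human KAT6A (WT), KAT6A with a lysine replaced by arginine (K815R, a form that resists acetylation) or by glutamine (K815Q, a mimic of the acetylated form). KAT6A is a histone acetyltransferase, and the series title ties its acetylation to AMPK and mitochondrial metabolism. All groups received a virus, so none shows cells without infection, and the labels do not say whether the 3 replicates were separate cultures, so p-values measure only the spread between these libraries.

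As a check of the labels, the row for rat Kat6a averaged 48.1 ± 4.75 CPM (counts relative to the scaled library total; SD, n = 3) in LacZ, 93.0 ± 12.3 in WT and 108 ± 11.7 in K815R. The libraries labelled K815Q averaged 46.3 ± 3.35 CPM, at the LacZ level, and every result for them below is for the libraries so labelled. Gene counts ranged from 19102048 to 25451686 per library. Cardiomyocyte markers (Tnnt2, Myh6, Actn2, Tnni3, Ryr2, Pln) summed to between 25758 and 27821 CPM over the 12 libraries, and fibroblast markers (Col1a1, Col1a2, Col3a1, Pdgfra, Dcn, Lum) to between 10568 and 12414. The cultures therefore held fibroblast transcripts beside those of cardiomyocytes, and in bulk RNA fewer cells of a type and less RNA per cell cannot be told apart.

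At the level of single genes, 8 of the 85 members were called in any of the 6 pairwise comparisons. Cox8b and Cox4i2, both of complex IV, were called in 3 comparisons each, and the other 6 only in K815Q against LacZ. A gene was called when edgeR's quasi-likelihood test, adjusted by Benjamini-Hochberg over all genes, gave an adjusted p under 0.05. In WT against LacZ 2 members were called, in a comparison where 5.34% of all genes were. In K815R against LacZ 1 member was called against a background of 2.47%, and in K815Q against LacZ 7 against a background of 7.85%. For K815R against WT and K815Q against WT 1 member each was called, where 2.20% and 1.07% of all genes were. In K815R against K815Q edgeR called 0 members and DESeq2 also 0, in a comparison where 0.363% of all genes were called, and 3 members reached an unadjusted p under 0.05, as did 11.4% of all genes. Tested over all 4 groups at once, 3 members (Cox8b, Cox4i2 and Ndufa4) were called, against 8.13% of all genes.

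Cox8b, the heart and muscle form of complex IV subunit VIII, was higher than LacZ with each of the 3 viruses. Its LacZ libraries stood at 214, 187 and 188 CPM, those of WT at 255, 275 and 254, those of K815R at 263, 211 and 233, and those labelled K815Q at 284, 280 and 271. All WT and all K815Q libraries lay above all LacZ libraries, while K815R replicate 2 lay inside the LacZ range. The log2 fold change against LacZ was 0.41 ± 0.067 (SE; adjusted p = 8.51e-04) in WT, 0.26 ± 0.067 (adjusted p = 0.0402) in K815R and 0.50 ± 0.067 (adjusted p = 1.14e-04) in K815Q. The WT and K815Q calls were kept when any single library of the compared groups was left out, and the K815R call was kept in 2 of 6 such fits. It was lost without LacZ replicate 2 or 3 or K815R replicate 1 or 3, with adjusted p-values of 0.195, 0.197, 0.245 and 0.110. Between viruses Cox8b was 0.24 lower on the log2 scale in K815R than in K815Q, with an adjusted p of 0.137 and a 95% interval of the log2 difference from -0.38 to -0.10. The 6 cardiomyocyte markers summed to 25758 to 26267 CPM over LacZ libraries, 27354 to 27821 over those of WT, 26533 to 27015 over those of K815R and 26437 to 27583 over those of K815Q, so that no virus group overlapped LacZ. Pln, the marker that encodes phospholamban, rose by 0.22 on the log2 scale in WT (adjusted p = 0.0119) and by 0.24 in K815Q (adjusted p = 0.00634), and stood at 0.18 in K815R (adjusted p = 0.0769). The other 5 markers were not called by edgeR in any comparison with LacZ. DESeq2 called 1, 1 and 2 of the 6 in WT, K815R and K815Q against LacZ, of 670, 356 and 1005 genes called. In K815Q 3 of the 6 lay below LacZ (Myh6 at -0.02, Actn2 at -0.05 and Ryr2 at -0.14 on the log2 scale), and in K815R 1 did (Ryr2, -0.03). The part of cardiomyocyte content in the Cox8b result was not tested.

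Cox4i2, the form of complex IV subunit IV best known from lung and from oxygen sensing, was called lower in WT against LacZ. It was not called against LacZ in K815R or in the libraries labelled K815Q. LacZ libraries held 16.5, 19.3 and 15.7 CPM, WT libraries 11.2, 11.5 and 13.5, K815R libraries 17.6, 17.6 and 17.1, and K815Q libraries 14.5, 18.0 and 15.8. The 3 WT libraries were the lowest of all 12 and overlapped no other group. Cox4i2 fell by 0.51 ± 0.097 on the log2 scale in WT against LacZ (adjusted p = 0.00240) and was higher than WT by 0.53 ± 0.097 in K815R (adjusted p = 0.00520) and by 0.42 ± 0.10 in K815Q (adjusted p = 0.0385). The WT and K815R calls were kept in 6 of 6 fits that left out a library, and the K815Q against WT call in 2 of 6. That call was lost without WT replicate 1 or 2 or K815Q replicate 2 or 3, with adjusted p-values of 0.160, 0.115, 0.140 and 0.0767. Against LacZ its log2 fold change was 0.02 in K815R and -0.09 in K815Q, neither called. In the RefSeq annotation of the later GRCr8 build Cox4i2 overlaps a long noncoding RNA gene, LOC134486188, and since the strand setting of the counting is not given, reads of the pair cannot be told apart.

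Pdgfra, a receptor that marks fibroblasts, had the same set of calls as Cox4i2, at log2 -0.36 in WT against LacZ (adjusted p = 0.00109), 0.54 in K815R against WT (adjusted p = 7.62e-05) and 0.30 in K815Q against WT (adjusted p = 0.0189). Of the 6 fibroblast markers 1 (Pdgfra) was called lower in WT against LacZ by edgeR and 0 higher. No other marker of the 6 was called by edgeR in any comparison. In WT 5 lay below LacZ and 1 (Col3a1) above. In that comparison 4 of the 6 reached an unadjusted p under 0.05, as did 2680 of all 14063 genes. DESeq2 called 3 of the 6 in WT, 1 in K815R and 1 in K815Q against LacZ, of 670, 356 and 1005 genes called. The 6 fibroblast markers summed to 11476 to 12339 CPM over LacZ libraries and 10568 to 11553 over those of WT. Over K815R libraries they summed to 10748 to 11170, and over those of K815Q to 11541 to 12414. All K815R sums thus lay below all LacZ sums and within the WT range, whereas Pdgfra averaged 61.2 CPM in LacZ and 69.2 in K815R. These sums rest mostly on Col1a1 and Col3a1, which averaged 7480 and 2943 CPM in K815R. By marker, 3 of the 6 lay above LacZ in K815R and 3 below. Col1a2 varied widely within groups, at 74.3, 9.14 and 16.9 CPM in K815R and 126, 81.0 and 9.85 in K815Q. The 6 smooth muscle markers summed to between 6456 and 6903 CPM in LacZ and between 6317 and 6493 in WT, and to between 6817 and 7135 in K815R and between 6251 and 6612 in K815Q. The K815R sums lay above all WT sums, but the 6 smooth muscle markers did not move together. In K815R 4 of them lay above WT and 2 below. There edgeR called 0 of the 6 and DESeq2 1, of 309 and 285 genes called. Against LacZ edgeR called 0 of the 6 and DESeq2 1 in each of WT, K815R and K815Q. Des, a gene that cardiomyocytes also express, averaged 2748 ± 137 CPM in WT and 3185 ± 87.5 in K815R. It is a large part of the smooth muscle sums, so these do not measure smooth muscle cells alone. Myh11 (126 in WT and 110 in K815R) and Tagln (796 and 758) were the 2 below. Macrophage markers summed to no more than 53.1 CPM and endothelial markers to no more than 181 CPM in any library. The part of these cells in the Cox4i2 result was not tested.

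**Figure D1:**
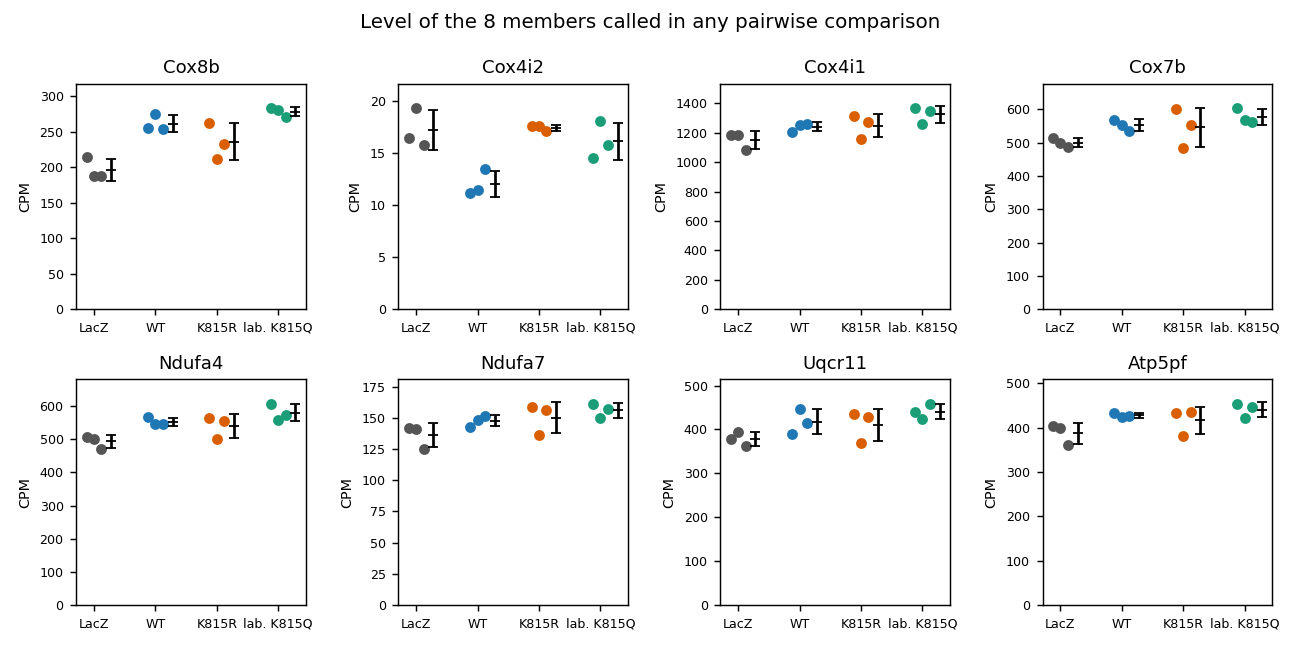
CPM (linear axis from 0) of the 8 members called in any pairwise comparison, with a point for each of 3 libraries per group (replicates 1 to 3 from left to right) and the mean with its SD beside them. Cox8b was higher with each virus than with LacZ, Cox4i2 was low in the 3 WT libraries, and K815R replicate 2 lay below the other K815R libraries for Cox8b, Cox4i1, Cox7b, Ndufa4, Ndufa7, Uqcr11 and Atp5pf.

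The promoters of 3 called members are shown because they differ in kind and because Cox8b is the member with the most calls against LacZ. Sequences are RefSeq's for GRCr8, 5′ to 3′ on the gene's strand, from 250 bases before the annotated start to 50 after it, and capitals mark matches on either strand to the motifs searched.
Cox8b (chr1:205408224-205408523, minus strand): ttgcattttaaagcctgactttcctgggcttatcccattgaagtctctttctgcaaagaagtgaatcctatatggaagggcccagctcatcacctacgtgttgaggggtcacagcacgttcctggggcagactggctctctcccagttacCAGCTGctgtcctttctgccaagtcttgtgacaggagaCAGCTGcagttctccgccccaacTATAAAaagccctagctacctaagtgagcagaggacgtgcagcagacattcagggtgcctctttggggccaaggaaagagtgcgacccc
Cox4i1 (chr19:65630133-65630432, plus strand): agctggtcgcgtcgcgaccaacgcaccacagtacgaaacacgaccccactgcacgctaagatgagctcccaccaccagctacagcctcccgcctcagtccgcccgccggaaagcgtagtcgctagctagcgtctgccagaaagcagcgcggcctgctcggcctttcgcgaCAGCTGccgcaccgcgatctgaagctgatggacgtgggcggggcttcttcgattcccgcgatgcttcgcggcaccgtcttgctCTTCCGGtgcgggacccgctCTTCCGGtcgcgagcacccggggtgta
Atp5pf (chr11:37375052-37375351, minus strand): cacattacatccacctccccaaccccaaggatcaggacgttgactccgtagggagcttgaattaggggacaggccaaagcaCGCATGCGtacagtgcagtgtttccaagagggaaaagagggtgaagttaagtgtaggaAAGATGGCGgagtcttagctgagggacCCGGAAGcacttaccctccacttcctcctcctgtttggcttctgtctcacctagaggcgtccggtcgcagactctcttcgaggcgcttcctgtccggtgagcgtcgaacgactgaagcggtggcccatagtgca
The Cox8b window holds TATAAA, starting 39 bases before the start, and CAGCTG (an E-box) 100 and 62 bases before it. The Cox4i1 window holds CAGCTG 80 bases before the start and, just after the start, CTTCCGG at bases 3 and 23, which reads CCGGAAG (an ETS factor motif) on the other strand. The Atp5pf window, from the widely expressed peripheral stalk gene, holds CCGGAAG 84 bases, AAGATGGCG (YY1) 111 bases and GCATGCG (the NRF1 core) 168 bases before the start, the last with an overlapping match on the other strand.

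Of the 81 symbols, 69 had an entry in the promoter table. Counting both strands, 26.1% of these 69 promoters held CCGGAAG against 9.22% of all 27457 promoters of the same length, 14.5% held AAGATGGCG against 1.93%, 14.5% held GCATGCG against 3.54% and 15.9% held AAGGTCA (the ERR motif) against 4.37%. TATAAA was present in 10.1% against 14.3%, and CAGCTG, which reads the same on both strands, in 14.5% against 15.1%. These shares describe letters in a window, and a match is not shown to be a site that is used.

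The other 6 called members rose in K815Q against LacZ, 1.14-fold to 1.18-fold, and were not called elsewhere. Ndufa4, which carries a complex I symbol but is known as a subunit of complex IV, stood at 508, 502 and 471 CPM in LacZ and 608, 558 and 575 in K815Q. Its log2 fold change was 0.23 ± 0.054 (adjusted p = 0.00968). Cox4i1, the widespread form of subunit IV and the partner of Cox4i2, stood at 1183, 1188 and 1083 CPM in LacZ and 1371, 1262 and 1349 in K815Q. It rose by 0.21 ± 0.056 on the log2 scale (adjusted p = 0.0287). Both genes had all 3 K815Q libraries above all 3 LacZ libraries, and K815Q replicate 2 was the lowest of its group in each.

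Uqcr11, a small subunit of complex III, stood at 379, 395 and 363 CPM in LacZ and 440, 424 and 459 in K815Q (log2 fold change 0.22 ± 0.062, adjusted p = 0.0338). Atp5pf, coupling factor 6 of the ATP synthase peripheral stalk, stood at 403, 399 and 361 CPM in LacZ and 454, 422 and 447 in K815Q (0.19 ± 0.056, adjusted p = 0.0434). Neither pair of groups overlapped. In GRCr8 Atp5pf overlaps Gabpa, so its count carries the same strand doubt as that of Cox4i2. Ndufa7, an accessory subunit of the complex I matrix arm, averaged 136 ± 9.69 CPM in LacZ and 156 ± 6.05 in K815Q (log2 fold change 0.20 ± 0.060, adjusted p = 0.0460). Cox7b, a complex IV subunit without a muscle form, averaged 500 ± 14.1 and 578 ± 23.5 CPM (0.21 ± 0.061, adjusted p = 0.0390).

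These 6 calls depended on which libraries were included. When 1 library of LacZ or K815Q was left out, Ndufa4 kept its call in 4 of 6 fits, Cox4i1, Ndufa7 and Atp5pf in 2 and Uqcr11 and Cox7b in 1. Leaving out K815R replicate 2, which is in neither group compared, raised the number of members called in K815Q against LacZ from 7 to 24, where 9.25% of all genes were called in place of 7.85%. Leaving out LacZ replicate 3 or K815Q replicate 1 lowered it to 1, where 3.56% and 2.52% of all genes were called.

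Between complexes, the medians of the members' log2 fold changes lay close together. In WT against LacZ they were 0.09 for complex I, 0.04 for II, 0.08 for III, 0.10 for IV and 0.09 for V, where the median over all genes tested was 0.0087. In the same order they were 0.06, 0.02, 0.09, 0.09 and 0.08 for K815R and 0.13, 0.07, 0.13, 0.16 and 0.15 for K815Q, with medians over all genes of 0.0034 and 0.0065. Complex II had the lowest and complex IV the highest median in each of these 3 comparisons. No member of complex II was called by edgeR or DESeq2 in any comparison. In K815R and in K815Q against LacZ 1 (Sdhb) of 4 reached an unadjusted p under 0.05, as did 11 and 51 of all 85 members. The share of all genes under that p in these comparisons is not reported here.

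**Figure D2:**
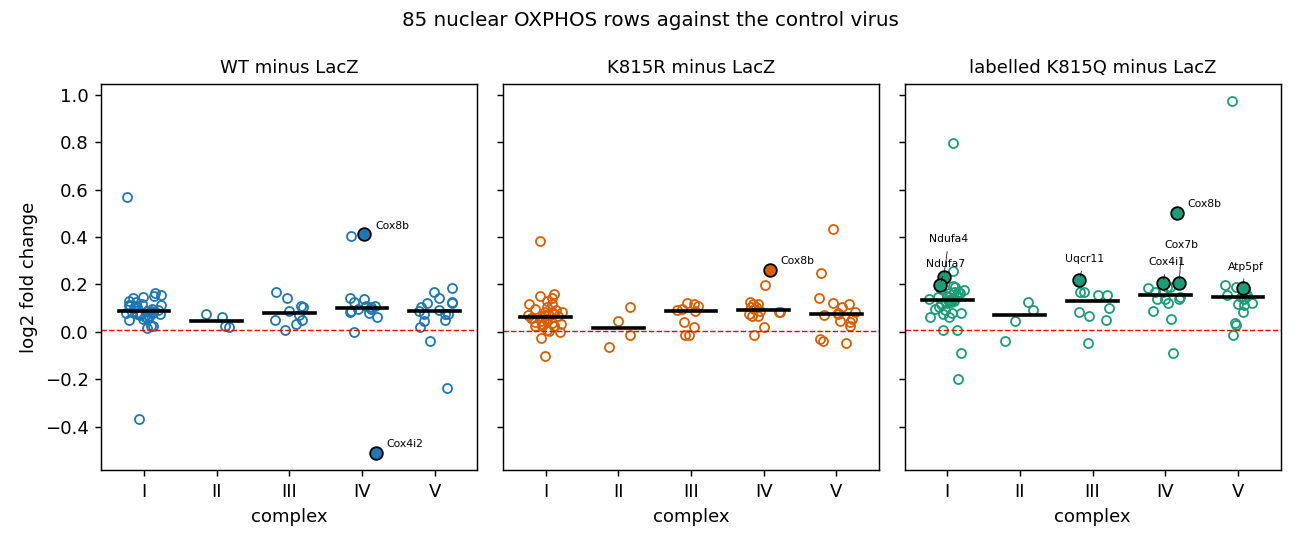
Log2 fold change against LacZ of the 85 members by complex, with a point per member, filled and named where called at an adjusted p under 0.05, a black bar at the complex median and a red dashed line at the median over all 14063 genes tested. Most members lie slightly above the dashed line in each comparison, and few are called.

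Counts of libraries stood above the share of all genes in WT and K815Q and below it in K815R. In WT 34 of 85 members had all 3 libraries above all 3 LacZ libraries, as did 12.3% of all genes, and 1 (Cox4i2) had all 3 below. In K815R 4 of 85 did, against 9.11% of all genes, and in K815Q 42 of 85, against 13.9%. By complex, those 42 were 18 of 38, 1 of 4, 4 of 10, 9 of 16 and 10 of 17 for I to V. The mean was lowest in LacZ for 71 of 85 members (83.5%, against 30.8% of all genes) and highest in K815Q for 67 (78.8%, against 27.8%). Median variation between the LacZ libraries was 4.85% of the mean for members and 6.36% for all genes.

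Within complexes I, III and V the core, catalytic and F1 head subunits had lower medians than the other listed subunits in K815Q. The same held in WT and K815R, and these are values without a test of that contrast. Against LacZ, the complex I median log2 fold change in K815Q was 0.08 over the 7 core subunits. It was 0.16 over 10 accessory rows of the matrix arm and 0.13 over 19 of the membrane arm. An unadjusted p under 0.05 was reached by 3 of 7, 8 of 10 and 10 of 19, and by 51 of all 85 members. These counts compare members with each other only, as the share of all genes under that p is not reported here. In WT the 3 medians were 0.08, 0.09 and 0.09, and in K815R 0.03, 0.09 and 0.06. In complex III the K815Q median was 0.07 for the 2 catalytic subunits (Uqcrfs1, the Rieske iron-sulfur protein, and Cyc1, cytochrome c1) and 0.15 for the other 8. These medians were 0.05 and 0.10 in WT and 0.01 and 0.09 in K815R. In ATP synthase the K815Q median was 0.09 for the F1 head (5 rows), where ATP is formed. It was 0.17 for the peripheral stalk (4 rows) and 0.15 for the membrane part (6 rows). The stalk rows include Atp5pb, which averaged only 0.909 CPM. Its K815Q libraries held 1.77, 1.93 and 0.469 CPM, and its log2 fold change of 0.97, not called, was the highest of the 4. The ATP synthase medians in the same order were 0.05, 0.10 and 0.10 in WT and 0.05, 0.10 and 0.07 in K815R.

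Of the catalytic and electron-carrying subunits, Ndufs1, which holds iron-sulfur clusters of the complex I electron path, averaged 422 ± 12.5 CPM with LacZ, 427 ± 7.12 with WT, 394 ± 13.1 with K815R and 397 ± 23.7 with K815Q. Sdha, the flavoprotein that oxidises succinate in complex II, averaged 721 ± 18.8, 731 ± 20.3, 689 ± 27.9 and 703 ± 30.3 CPM in the same order. Atp5f1b, the catalytic beta subunit of ATP synthase, averaged 5732 ± 99.7, 5928 ± 104, 5589 ± 101 and 5891 ± 256 CPM. None of these 3 was called in any comparison by edgeR, and the 95% intervals of their log2 fold changes in K815Q against LacZ ran from -0.19 to 0.01, from -0.14 to 0.07 and from -0.07 to 0.15. In K815Q 79 of 85 members had a value above 0, and the 6 below it were Ndufs1 (-0.09), Sdha (-0.04), Uqcrc2 (-0.05), Atp5f1a (-0.01), Cox4i2 and Ndufa4l2.

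**Figure D3:**
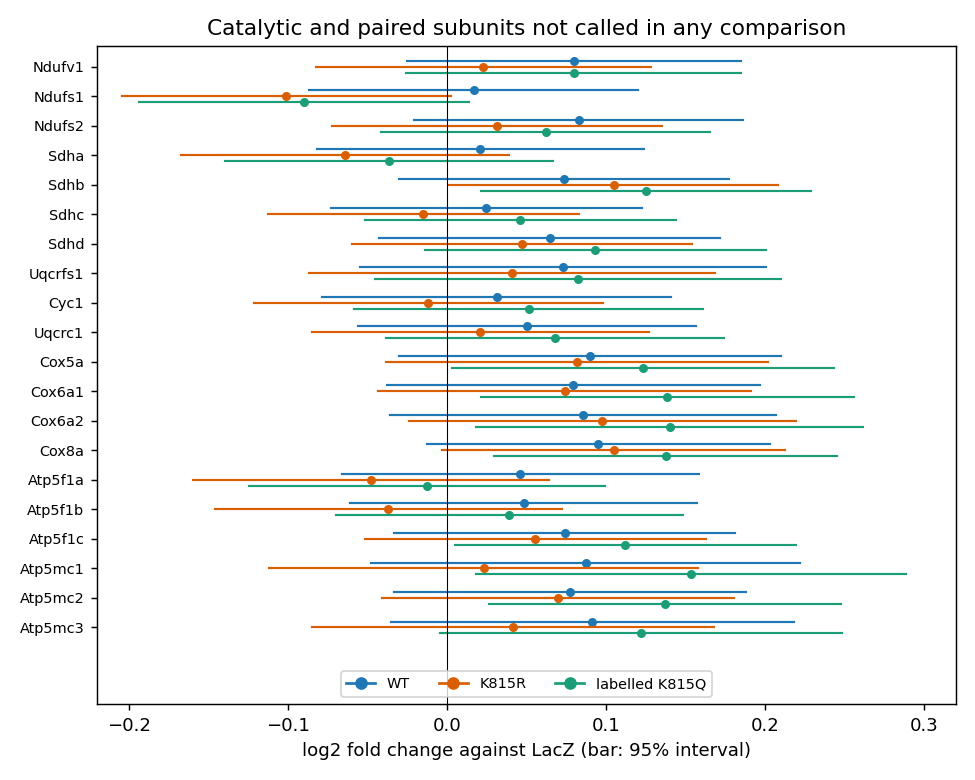
Log2 fold change against LacZ (points) with its 95% interval (bars) for 20 catalytic, c-ring and paired-isoform subunits, none of which was called in any comparison. Most intervals include 0, and Ndufs1, Sdha and Atp5f1a lie at or left of 0 in K815R and K815Q.

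The remaining named members were not called. In WT, Uqcr10 of complex III stood 0.17 ± 0.061 above LacZ on the log2 scale (adjusted p = 0.113) and Atp5f1e, the epsilon subunit of the F1 head, 0.19 ± 0.074 (adjusted p = 0.170). In K815R, Ndufa11 of the complex I membrane arm had 0.16 ± 0.051 (adjusted p = 0.113), Uqcrq 0.12 ± 0.054 (adjusted p = 0.304) and Atp5mg 0.14 ± 0.061 (adjusted p = 0.292). Sdhb, the iron-sulfur subunit of complex II, had 0.07, 0.10 and 0.13 in WT, K815R and K815Q. Ndufa4l2, a paralog of Ndufa4 that is not a core part of complex I, had -0.36 ± 0.172 in WT against LacZ (adjusted p = 0.280) and 0.43 ± 0.172 in K815R against WT (adjusted p = 0.294), the same signs as Cox4i2 but with wide intervals. Against WT, Sdha had -0.09 in K815R and -0.06 in K815Q, Atp5f1a -0.09 in K815R and Atp5pd 0.07 in K815Q, none called.

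The isoform pairs of complex IV were compared as ratios within each library, which do not depend on the scaling between libraries. The log2 ratio of Cox8b to Cox8a exceeded that of LacZ by 0.32 ± 0.082 (SD, n = 3) for WT, 0.15 ± 0.098 for K815R and 0.37 ± 0.065 for K815Q, and its 3 LacZ values spanned -0.10 to 0.06 around their mean. The lowest values of WT, K815R and K815Q, 0.25, 0.08 and 0.29, lay above all LacZ values. The other heart pair did not follow: Cox6a2 to Cox6a1 shifted by 0.01 ± 0.045, 0.03 ± 0.028 and 0.0030 ± 0.039. The third heart and muscle form, Cox7a1, had 0 or 1 count per library. For Cox4i2 to Cox4i1 the shift was -0.62 ± 0.125 with WT, -0.09 ± 0.104 with K815R and -0.30 ± 0.219 with K815Q. Cox6b2, the testis form of subunit VIb, averaged 3.16 CPM, and its ratio to Cox6b1 shifted by 0.31 ± 0.138 with WT, 0.08 ± 0.392 with K815R and 0.04 ± 0.131 with K815Q. The LacZ values of that ratio spanned -0.29 to 0.22, so that WT overlapped them.

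The small differences shared by many members varied between single libraries, which also differed in depth. The median shift of the 85 members from their LacZ means, on the log2 scale, was 0.04, 0.03 and -0.07 in the LacZ libraries, 0.07, 0.12 and 0.08 in those of WT, 0.15, -0.06 and 0.12 in those of K815R and 0.17, 0.06 and 0.18 in those of K815Q. K815R replicate 2 therefore lay below the LacZ mean and apart from the other K815R libraries, and complexes I, II, III and V each had a negative median there (complex IV was at 0.0013). Gene counts were 23646893, 22095429 and 23870785 in the LacZ libraries, 19944466, 19102048 and 20791074 in those of WT, 20076614, 25451686 and 22019081 in those of K815R and 19628703, 19906699 and 19192015 in those of K815Q. The 2 deepest libraries, K815R replicate 2 and LacZ replicate 3, were the 2 with a shift below 0. In 3 of 4 groups the deepest library had the lowest shift, while in WT replicate 3 was the deepest and replicate 1 the lowest. LacZ replicate 1, close in depth to LacZ replicate 3, stood at 0.04.

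**Figure D4:**
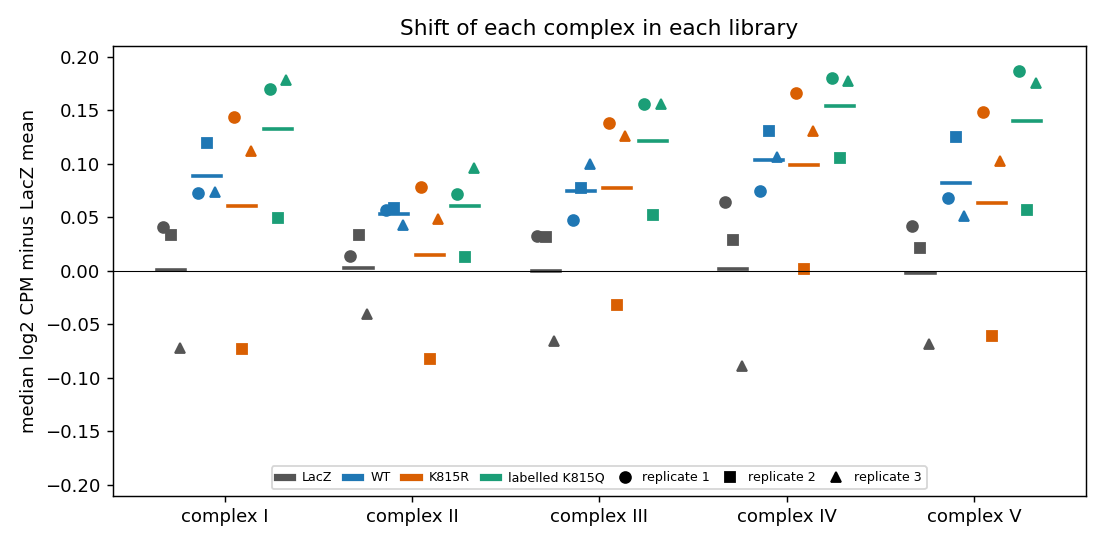
Median log2 CPM minus the LacZ mean of each member, by complex and library, with colour for the group, marker shape for the replicate and a bar for the group mean of 3 libraries. LacZ replicate 3, K815R replicate 2 and K815Q replicate 2 are the lowest libraries of their groups in each of the 5 complexes.

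The depths of the WT and K815Q libraries do not overlap those of LacZ, so in these comparisons depth and group cannot be told apart. With the log2 library total as a covariate, added after seeing the data, the members' median log2 fold change against LacZ was -0.04 for WT, 0.04 for K815R and -0.02 for K815Q, in place of 0.09, 0.07 and 0.14. In that fit 2.35%, 2.65% and 1.22% of all genes were called in WT, K815R and K815Q against LacZ. Among them was 1 member in each comparison, which was Cox4i2 in WT (adjusted p = 0.0368) and Cox8b in K815R (adjusted p = 0.0305) and K815Q (adjusted p = 0.0422). Cox8b in WT stood 0.26 above LacZ on the log2 scale there, with an adjusted p of 0.0832, and the other 6 members called in K815Q against LacZ had adjusted p-values from 0.573 to 0.950. The Cox4i2 calls of K815R and K815Q against WT had adjusted p-values of 0.0299 and 0.0372, where 1.23% and 1.41% of all genes were called. The depth term rests in part on K815R replicate 2, and with that library also left out the medians were 0.0024, 0.07 and 0.04, with 0 members called by edgeR in each comparison with LacZ, where 0.730%, 0.674% and 0.534% of all genes were called.

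A shift above LacZ was also present outside the members. The 60 genes of cytosolic ribosomal proteins that averaged 100 CPM or more, a set chosen after the members' shift was seen, had median log2 fold changes against LacZ of 0.05 for WT, 0.09 for K815R and 0.11 for K815Q. The 73 members at that level had 0.09, 0.07 and 0.14, and all 1771 genes at that level 0.0057, 0.0068 and 0.01. In K815R against WT the ribosomal protein genes had a median of 0.04 (51 of 60 above 0) and the members at that level -0.02 (23 of 73 above 0). Ribosomal protein genes too were lowest in LacZ replicate 3, at -0.09. The members' shift is thus not shown to be particular to OXPHOS. The covariate fits above cannot separate depth from virus in WT and K815Q, whose depths do not overlap those of LacZ. The part of depth in the shift was therefore not tested.

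**Figure D5:**
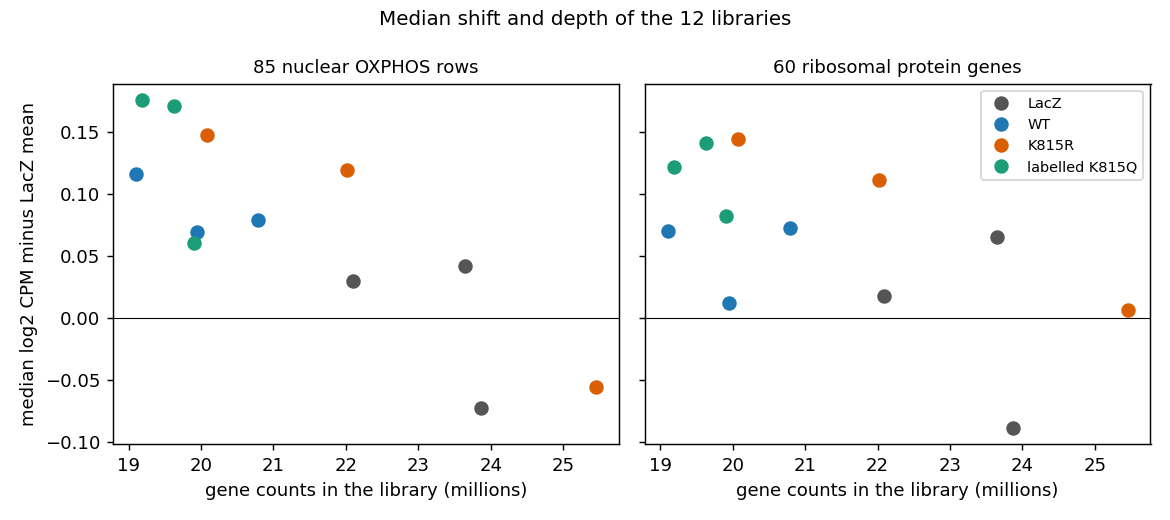
Median log2 CPM minus the LacZ mean against the gene counts of each library, for the 85 members (left) and 60 ribosomal protein genes (right), with a point per library coloured by group. The WT and K815Q libraries lie between 19102048 and 20791074 counts and the LacZ libraries between 22095429 and 23870785, and the 2 deepest libraries have the lowest member shifts.

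In the comparisons that do not involve LacZ, members' medians were -0.02 in K815R against WT, 0.05 in K815Q against WT and -0.06 in K815R against K815Q. The first and the last turned on K815R replicate 2. Without it they were 0.04 and -0.0032, and that of K815R against LacZ rose from 0.07 to 0.14. The median of K815R against LacZ fell to 0.03 without K815R replicate 1 and to 0.03 without LacZ replicate 3, and that of WT against LacZ fell from 0.09 to 0.05 without LacZ replicate 3. The median of K815Q against WT was 0.08 without K815Q replicate 2 and 0.02 without K815Q replicate 3. Without K815R replicate 1 or 3, K815R against WT stood at -0.06 and -0.04, and without WT replicate 2 or 3 at -0.0025 and -0.03. K815R against K815Q stood at -0.10 without K815R replicate 1. The comparisons with LacZ share its 3 libraries, so their likeness to each other is not independent.

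Genes that assemble the complexes, without being part of them, were looked at through a list of 49 tested assembly factors. In K815Q against LacZ 2 rose and 1 fell by edgeR's quasi-likelihood test, 3 of 49 where 7.85% of all genes were called, and DESeq2 called 2. Uqcc3, a complex III assembly factor, rose from 34.6 ± 2.77 to 40.5 ± 1.81 CPM (log2 fold change 0.23, adjusted p = 0.0390), and Cox17, a copper chaperone for complex IV, rose with a log2 fold change of 0.22 (adjusted p = 0.0342). Cox11, which delivers copper to complex IV, fell by 0.35 on the log2 scale (adjusted p = 0.0376), to 7.17, 8.53 and 9.07 CPM from 10.1, 11.5 and 9.96 in LacZ. In WT and in K815R against LacZ edgeR and DESeq2 called 0 of 49, where edgeR called 5.34% and 2.47% of all genes. In each of the 2 comparisons 4 of 49 reached an unadjusted p under 0.05, which 2680 of all 14063 genes reached in WT. The share of all genes under that p is not reported here for K815R or K815Q. Their median log2 fold changes against LacZ were 0.05, 0.03 and 0.07 for WT, K815R and K815Q. Of 5 tested carriers and subunits that are not members, cytochrome c (Cycs), the acyl carrier subunit Ndufab1, and Etfa, Etfb and Etfdh of the electron transfer flavoprotein system, edgeR and DESeq2 called 0 in any comparison with LacZ, and 1 (Ndufab1) reached an unadjusted p under 0.05, in K815Q.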

How the data were processed

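Poly(A) RNA of 12 libraries in 4 groups of 3 was measured. The authors deposited raw read counts per gene. Trimmomatic 0.39, HISAT2 2.2.1, HTSeq 0.6.1, edgeR and the build Rnor_6.0 are named, without their roles, per the submitters' processing notes. Which annotation was used, and whether counting used strand, is not given in the sources used here. Of all reads, 25.6% to 26.9% aligned to more than 1 place and were not counted, so members with close copies or pseudogenes rest on part of their reads. Lines that name no gene stayed out, 11.7% to 12.9% of reads lying in no feature.

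Gene counts of 19102048 to 25451686 per library make 3 counts equal to 0.118 to 0.156 CPM, a floor that covers counting error only. Counts were scaled by TMM and filtered by filterByExpr (minimum count 10, minimum total 15). They were fitted by edgeR 4.0.16 in R 4.3.3, with the quasi-likelihood test, robust dispersion and 1 model of group means (common coefficient of variation 0.0581). P-values were adjusted by Benjamini-Hochberg over 14063 genes and called under 0.05. Log2 CPM used a prior count of 2. The procedure was tested on simulated data. Chi-square per degree of freedom between replicates was 4.64 to 9.10, more than counting error alone gives, and each library was treated as its own replicate. That spread does not show that the libraries came from separate cultures.

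Members, lists, tests and markers were chosen with earlier results of these data known. Named members are a panel of catalytic, paired and ring subunits, the called member with the smallest adjusted p (or, with none called, the largest change at 5 CPM or more) per complex and comparison, members called in 3 or more comparisons, and called assembly factors. Ndufa7, Cox7b, Uqcrc2, Cox6b2, Ndufab1, Atp5pb, Pdgfra, Col1a1, Col1a2, Col3a1, Des, Myh11, Tagln and the cardiomyocyte markers with their own values were named after these were seen. The carrier list also held Atp5md and Atp5if1, which are members and were counted only as such. Gene symbols were used as deposited. Promoters are RefSeq's for GRCr8 (69 of 81 symbols matched), and no coordinates of Rnor_6.0 are given. Alternatives were RLE, upper-quartile and unscaled totals, other filters, DESeq2 1.42.0, a replicate block, only the 6 libraries compared, each library left out and, added after seeing the data, depth as a covariate with and without K815R replicate 2.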

Additional observations from a re-analysis of the deposited data

Results flagged for a closer look

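Ndufa1, a membrane-arm subunit of complex I that did not reach 10 counts in 3 libraries, had 117 counts in the library labelled K815Q replicate 2. The other 11 libraries held 0 to 4 counts, with 0 to 3 in LacZ. The value comes from a row outside the comparisons, from 1 library, and no test was made.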

How the results depend on the processing

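Counts of called members moved most. With library totals alone 0 members were called in K815R against LacZ, 2 in K815Q against LacZ and 0 in K815Q against WT. Of all genes 403, 1203 and 140 were called there, against 348, 1104 and 151 in the main fit. With no filter 21 were called in K815Q against LacZ, of 1528 genes called, and 1 in K815R against K815Q, of 307. For any difference 10 members were called, and the number of all genes is not reported here. In fits of only the 6 libraries compared 0 were called in K815R and 15 in K815Q against LacZ, of 315 and 1034 genes called. Leaving out 1 library gave 2 to 4 in WT, 0 to 5 in K815R and 1 to 24 in K815Q against LacZ, 0 to 1 in K815Q against WT, 0 to 1 in K815R against K815Q and 2 to 15 for any difference, the highest of the first 3 and of the last without K815R replicate 2. In those fits 378 to 839, 173 to 364 and 360 to 1318 of all genes were called in WT, K815R and K815Q against LacZ. In K815Q against WT 50 to 218 were, and in K815R against K815Q 11 to 98. The cause of these moves in members called was not tested.

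With depth as a covariate 1 member was called in WT and 1 in K815Q against LacZ, of 331 and 171 genes called. The members' medians were then -0.041 in WT and -0.018 in K815Q against LacZ, 0.078 in K815R against WT and 0.048 in K815R against K815Q. With K815R replicate 2 also left out 0 were called in WT, K815R and K815Q against LacZ, of 104, 96 and 76 genes called. In K815Q against WT 0 members were called, of 126 genes, and for any difference 1 member was called. The medians were then 0.0024 in WT and 0.038 in K815Q against LacZ, 0.070 in K815R against WT and 0.034 in K815R against K815Q. Under the other alternatives the medians against LacZ stayed above 0. Library totals alone put the median over all genes at -0.036 in K815R against LacZ, the farthest from 0 of the 6 comparisons.

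Among recomputed values of named members 54 lost a call, 24 gained one and 4410 kept their side of the threshold, and no called value changed sign. Among recomputed complex medians 636 kept their sign and moved by less than 1 SD of the library shifts, 15 changed sign within it, 9 moved by more and 30 moved by more and changed sign. Replicate numbers did not pair the samples: same-numbered libraries of different groups had deviations correlated at -0.13 to 0.12 (18 pairs, 1 over 0.1), and 4 of 12 libraries correlated best with their own number. With the replicate block 2, 1 and 9 members were called in WT, K815R and K815Q against LacZ, of 800, 390 and 1280 genes called. In K815R and in K815Q against WT 1 member each was called, of 343 and 232 genes. In K815R against K815Q 0 were called, of 86 genes, and 3 for any difference. No count of members thus moved by over 1.5 times. There were 5 members with a mean under 5 CPM, whose counts are few.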
